A study of Mus musculus with 35 samples.

Results

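The genes of the motile cilium and its axoneme were followed through 7 groups of mouse tracheal tissue, 5 Affymetrix arrays a group and 35 in all. Members were the probe sets annotated to a single gene whose symbol is Foxj1, Tppp3, Spag6, Spag16 or Spag17, or starts with Dnah, Dnai, Dnal, Rsph, Cfap, Tekt, Drc, Odad, Ift or Bbs and a digit. This gave 46 probe sets for 35 genes, of 20380 probe sets for 12393 genes. One group was native trachea that had not been transplanted. The others were tracheas recovered from a heterotopic site, outside the normal airway, at day 4, 14 or 25 after transplantation. An isograft had an MHC-compatible recipient and an allograft an MHC-incompatible recipient, where MHC is the set of genes that decides tissue compatibility. Strain, age, sex and the number of animals behind each array are not given in the sources used here, and no treatment is named. P-values therefore measure the spread between arrays, which may be technical.

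A motile cilium beats because dynein motors slide the paired microtubules of its core, the axoneme, against each other. Radial spokes, the dynein regulatory complex and proteins lodged in the microtubule walls control the beat, and the transcription factor Foxj1 switches on the genes that build these parts. Intraflagellar transport (IFT) trains and the BBSome carry cargo along the shaft of motile cilia and also of the single primary cilium found on most other cells. In the trachea the multiciliated cells of the surface epithelium move mucus towards the throat.

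The promoter letters of 4 members are shown because a short motif lies before the annotated start of each; they were chosen with their values known, Drc1, Tekt1 and Cfap298 as genes called lower in allografts and Ift27 as one that was not. The motif is GTTGCCA, the left part of the X-box that RFX factors bind at cilium genes. The lines give the 250 bases before the start, 5′ to 3′ on the gene's strand, from RefSeq on build GRCm38.p6. Capitals mark GTTGCCA or its reverse complement.
Drc1, chr5:30281143-30281392, plus strand: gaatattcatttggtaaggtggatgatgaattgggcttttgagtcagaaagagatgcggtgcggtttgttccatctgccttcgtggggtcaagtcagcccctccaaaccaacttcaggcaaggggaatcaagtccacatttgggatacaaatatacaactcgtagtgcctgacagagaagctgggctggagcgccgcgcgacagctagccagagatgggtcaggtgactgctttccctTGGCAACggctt
Tekt1, chr11:72361883-72362132, minus strand: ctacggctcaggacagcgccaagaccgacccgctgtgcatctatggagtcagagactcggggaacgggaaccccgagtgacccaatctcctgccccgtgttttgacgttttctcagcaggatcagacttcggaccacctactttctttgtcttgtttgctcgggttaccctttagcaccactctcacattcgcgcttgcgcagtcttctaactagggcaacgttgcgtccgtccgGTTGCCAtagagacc
Cfap298, chr16:90934850-90935099, minus strand: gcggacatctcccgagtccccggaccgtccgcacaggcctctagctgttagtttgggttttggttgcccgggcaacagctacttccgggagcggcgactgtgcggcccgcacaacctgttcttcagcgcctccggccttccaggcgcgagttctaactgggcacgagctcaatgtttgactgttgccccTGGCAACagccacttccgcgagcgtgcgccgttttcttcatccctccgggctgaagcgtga
Ift27, chr15:78174082-78174331, minus strand: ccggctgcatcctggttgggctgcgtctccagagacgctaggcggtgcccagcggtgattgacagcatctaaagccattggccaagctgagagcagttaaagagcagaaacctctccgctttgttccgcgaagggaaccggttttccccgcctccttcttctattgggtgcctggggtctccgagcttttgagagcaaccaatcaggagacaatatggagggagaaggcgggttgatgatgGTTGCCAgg
Counted from the start, the motif lay at -12 to -6 in Drc1, -15 to -9 in Tekt1, -61 to -55 in Cfap298 and -9 to -3 in Ift27. RefSeq held 30 promoters for 27 members, each running from 250 bases before to 50 after the start. On either strand GTTGCCA stood in 6 of the 30 (20.0%), those of Drc1, Tekt1, Cfap298, Cfap20, Ift27 and Ift88, and in 4.38% of all 32851 promoters of that length. The whole X-box, searched on both strands in 1 form, was found in 0 of the 30 and in 0.25% of all. The forkhead motif TGTTTAC stood in 1 of the 30 (3.33%), that of Cfap20, and in 3.65% of all. GTTGCCA can itself lie inside an X-box. A match here is a description of the letters.

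Values are the authors' log2 intensities, in which 1 unit is a doubling, and values of about 2 to 4 lie near background. Array medians lay between 5.07 and 5.30. A gene was tested where its probe set with the highest mean reached 5 in at least 5 arrays, which held for 26 of the 35 members and for 8306 genes in all. Calls rest on limma, at a p under 0.05 after Benjamini-Hochberg adjustment. The tissue carried airway markers: in native trachea the mean level of 10 secretory cell genes was 12.11 to 12.54, and that of Foxj1, Rsph1 and Tppp3 was 6.32 to 8.57. Replicate 5 of the native group and replicate 5 of the day 25 isografts stood apart. Their median correlations with their own group were 0.950 and 0.941, and each was the lowest of its group for 20 of the 26 tested members. Their mean level of 8 skin genes was 6.56 and 5.76, against 3.08 to 3.30 and 3.49 to 3.84 in the other arrays of their groups. Of these 8, Krt1, Krt2, Flg and Krt77 never reached 5 in any array. Whether the 2 arrays held skin or another epithelium was not tested. Native replicate 5 also had a mean of 12.17 for 9 skeletal muscle genes, against 7.62 to 10.41, and day 25 isograft replicate 5 a mean of 8.44 for 7 basal cell genes, against 5.77 to 7.11. Replicate 5 of the day 4 allografts was the highest of its group for 16 of the 26. Without the native and day 25 isograft replicates 5 together, the counts of called members below became 22 for day 25 allografts against isografts, 20, 3 and 3 for isografts of days 4, 14 and 25 against native, 20, 22 and 21 for allografts against native, and 18 for the interaction of day 25 with day 4. Without the day 4 allograft replicate 5 they became 18 for day 4 allografts against native and 14 and 13 for the interactions of days 14 and 25 with day 4.

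Allografts were compared with isografts of the same day, which asks what an MHC-incompatible recipient adds to transplantation. At day 4 limma called no member, while at day 14 most tested cilium genes were lower in allografts, 22 of 26. Drc3 was 18.0-fold lower, Rsph1 12.0-fold, Tppp3 11.6-fold and Foxj1 6.78-fold (n = 5 arrays a group). At day 25 Drc3 was 13.2-fold and Foxj1 10.6-fold lower. The allograft values of Drc3 lie near background, so its folds depend on the authors' background model and are neither exact nor bounds. Allograft means of Rsph1 (4.22 at day 14) and Foxj1 (4.33 at day 25) lay little above background, so the same limit may touch their folds. Without isograft replicate 5 the day 25 difference of Drc3 moved from -3.72 to -4.34 (log2). Ift20, Ift22 and Ift27, named with their values known, were called at neither day.

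At day 4, limma called 0 of 26 members lower or higher, where 0.0843% of all tested genes were called lower and 0.470% higher. At an unadjusted p under 0.05, 1 member was lower. Differences over all 35 members ran from -0.39 to 0.40, with a median of -0.06 against 0.03 over all tested genes. At day 14, 22 of 26 were called lower and 0 higher, where 10.5% of all tested genes were lower and 10.8% higher. The median difference was -0.96 over all 35 members and 0.03 over all tested genes. At day 25, 20 of 26 were called lower and 0 higher, against 10.3% and 6.83% of all tested genes. The median was then -1.09 over the 35 members and 0 over all tested genes. Called at both days were 19 genes, 86.4% of the day 14 calls and 95.0% of the day 25 calls. Cfap410, Ift80 and Ift88 were called at day 14 only, with differences of -0.33, -0.58 and -0.51 at day 25, and Bbs9 at day 25 only. The change from day 14 to day 25 was itself called for none of them in limma. Groups did not overlap, allografts being lower, for 22 of the 35 members at day 14 and 12 at day 25, where 6.21% and 5.62% of all 12393 genes did so. Of the 26 tested members, 9 reached 5 in no allograft and so passed the filter through the other groups alone: Bbs2, Bbs9, Cfap410, Cfap61, Dnah8, Drc1, Drc3, Rsph9 and Tekt1. They make up 8 of the 22 calls at day 14 and 8 of the 20 at day 25. Rsph1 and Cfap298 also reached 5 in no allograft of day 14 or day 25, and Foxj1 in none of day 25. They too were called lower at those days. In bulk tissue, fewer ciliated cells and less RNA per cell cannot be told apart.

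**Figure D1:**
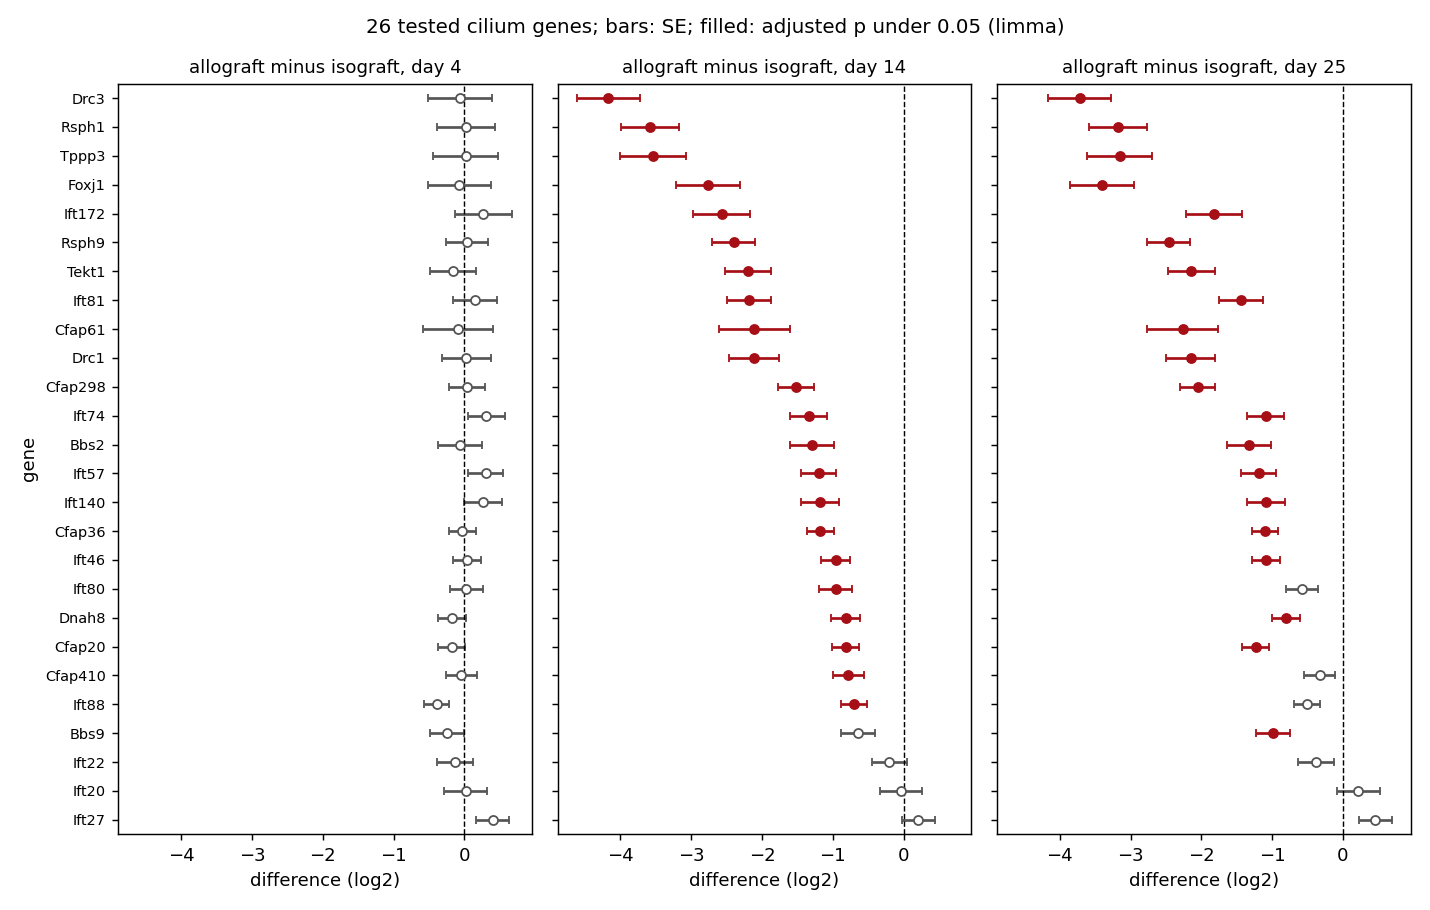
Allograft minus isograft difference (log2, horizontal axis) of the 26 tested cilium genes at day 4, day 14 and day 25, with bars for the SE and filled points for an adjusted p under 0.05 in limma. All points at day 4 lie between -0.39 and 0.40, while 22 at day 14 and 20 at day 25 are filled and to the left of 0.

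Foxj1, the transcription factor at the head of the motile cilium program, is listed first, with arrays in the order of replicates 1 to 5. In native trachea its log2 level was 9.14, 7.94, 7.89, 7.06 and 5.06. Isografts read 4.87, 4.94, 5.10, 4.88 and 4.97 at day 4, 6.54, 7.54, 7.08, 7.61 and 7.71 at day 14 and 7.64, 8.03, 8.09, 8.20 and 6.68 at day 25. Allografts read 4.24, 4.43, 4.59, 4.61 and 6.53 at day 4, 4.55, 4.62, 4.24, 5.05 and 4.22 at day 14 and 4.64, 4.40, 4.24, 4.12 and 4.24 at day 25. All 10 isografts of days 14 and 25 were above all 10 allografts of those days, and the native replicate 5 and the day 4 allograft replicate 5 stood away from their groups. The allograft difference was -0.07 at day 4, -2.76 at day 14 and -3.40 at day 25 (SE 0.45 each), with limma adjusted p-values of 2.42e-05 and 6.95e-07 at the later days.

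Tppp3, a tubulin-binding protein used as a marker of ciliated airway cells, read 9.81, 9.90, 9.99, 10.02 and 9.27 in native trachea. Its isograft levels were 6.67, 6.49, 6.08, 6.01 and 5.75 at day 4, 8.48, 8.49, 9.23, 10.77 and 9.55 at day 14 and 8.86, 9.18, 10.31, 9.89 and 6.78 at day 25. Its allograft levels were 6.45, 5.88, 6.17, 5.51 and 7.08 at day 4, 6.11, 5.54, 6.07, 5.68 and 5.44 at day 14 and 7.13, 5.42, 5.51, 5.93 and 5.28 at day 25. At day 14 the groups did not overlap, and at day 25 they did, through isograft replicate 5 and allograft replicate 1. The allograft difference was 0.02, -3.54 and -3.15 at days 4, 14 and 25 (SE 0.46), with adjusted p-values of 5e-07 at day 14 and 3.16e-06 at day 25 in limma.

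**Figure D2:**
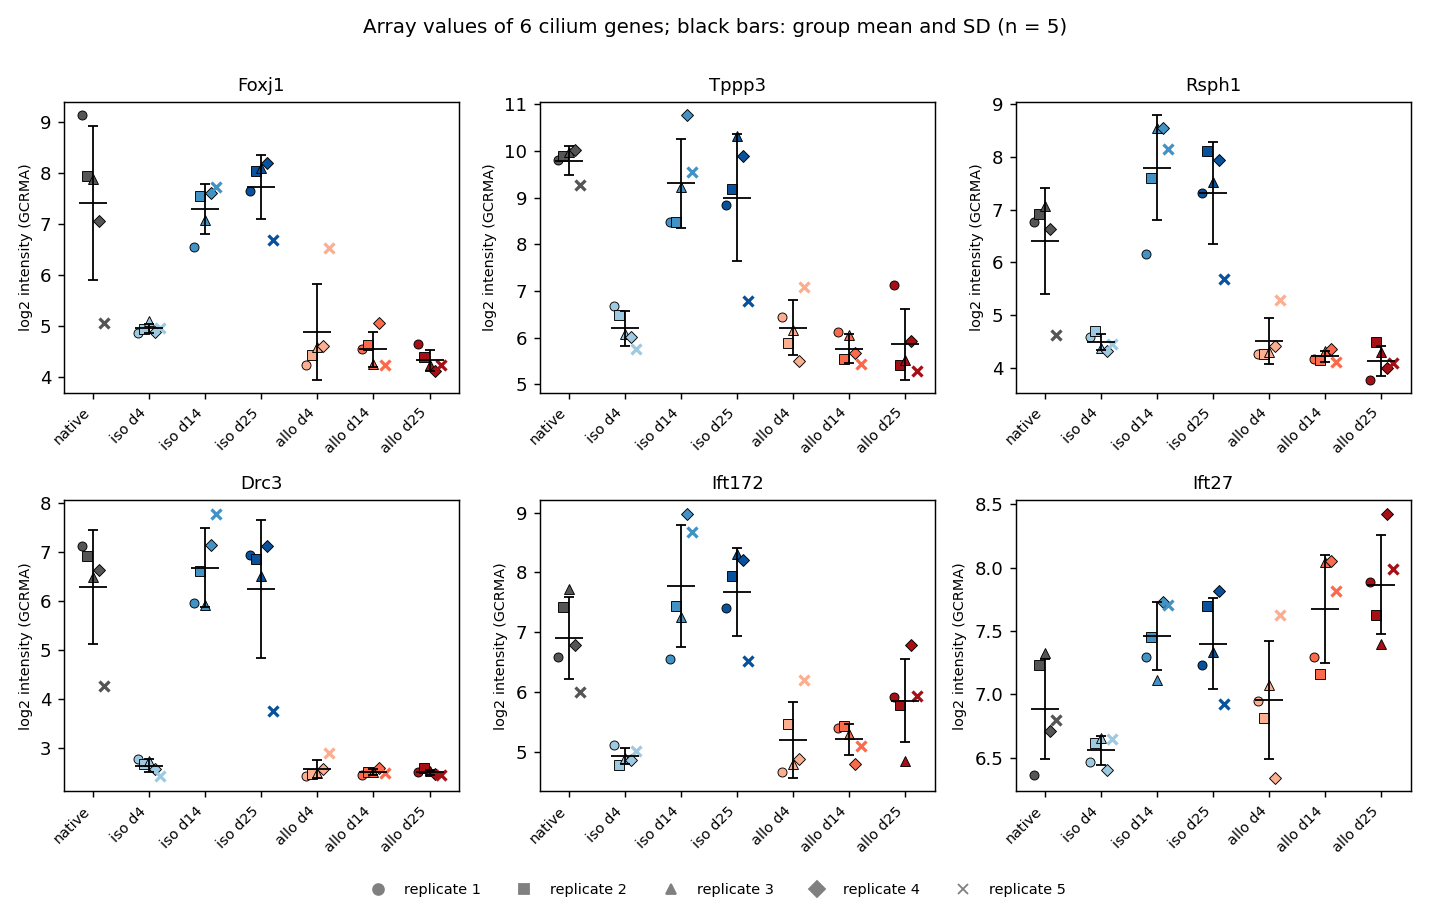
Log2 intensity (vertical axis) of Foxj1, Tppp3, Rsph1, Drc3, Ift172 and Ift27 in every array of the 7 groups, with a marker shape for each replicate number and black bars for the group mean and SD (n = 5). The first 5 genes are low in day 4 isografts and in allografts of every day, while Ift27 is highest in the day 25 allografts, at a mean of 7.87.

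Radial spokes reach from the outer microtubule pairs to the central pair and pass on the signals that shape the beat. Rsph1, a spoke head protein, read 6.77, 6.92, 7.06, 6.63 and 4.62 in native trachea. Its levels were 4.58, 4.69, 4.38, 4.32 and 4.45 in day 4, 6.16, 7.59, 8.55, 8.54 and 8.14 in day 14 and 7.31, 8.11, 7.52, 7.94 and 5.68 in day 25 isografts. Allografts held 4.26, 4.27, 4.29, 4.41 and 5.28 at day 4, 4.16, 4.15, 4.32, 4.35 and 4.10 at day 14 and 3.77, 4.50, 4.30, 3.99 and 4.09 at day 25. Every later isograft, replicate 5 of day 25 included, was above every allograft. Rsph1 differed by 0.02, -3.58 and -3.18 at days 4, 14 and 25 (SE 0.41), with limma adjusted p-values of 6.11e-08 and 4.3e-07 at the last 2 days.

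Rsph9, a further spoke head protein, read 7.03, 6.90, 7.25, 6.67 and 6.10 in native trachea. In isografts Rsph9 was at 4.47, 3.90, 4.63, 4.41 and 4.47 at day 4, 5.72, 6.63, 6.62, 7.48 and 6.93 at day 14 and 6.70, 7.08, 7.42, 7.31 and 5.10 at day 25. In allografts Rsph9 was at 4.29, 4.48, 4.75, 4.25 and 4.30, then 4.27, 4.13, 4.33, 4.34 and 4.32, then 4.35, 4.27, 4.39, 4.18 and 4.12 at the same days. The later isografts and allografts did not overlap, and the day 25 allografts lay between 4.12 and 4.39. Its allograft difference was 0.04, -2.40 and -2.46 (SE 0.30), with adjusted p-values of 2.66e-07 at day 14 and 1.23e-07 at day 25 in limma. Rsph6a stayed between 3.07 and 4.27 in all arrays and was not tested.

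The dynein regulatory complex ties neighbouring microtubule pairs together and holds the dynein arms in check. Drc3 read 7.12, 6.90, 6.49, 6.62 and 4.25 in native trachea. Its isograft levels were 2.77, 2.67, 2.73, 2.58 and 2.43 at day 4, 5.95, 6.60, 5.91, 7.14 and 7.78 at day 14 and 6.94, 6.86, 6.50, 7.11 and 3.75 at day 25. Its allograft levels were 2.43, 2.46, 2.50, 2.56 and 2.90, 2.46, 2.50, 2.51, 2.59 and 2.49 and 2.50, 2.58, 2.53, 2.47 and 2.45 at days 4, 14 and 25. Allografts of every day and day 4 isografts lay between 2.43 and 2.90, near background and under every later isograft, of which replicate 5 of day 25 was the lowest. Drc3 had the largest difference of all members at both later days, -4.17 at day 14 and -3.72 at day 25 (SE 0.45), after -0.06 at day 4. The limma adjusted p-values were 2.22e-08 and 1.48e-07.

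Drc1, a second subunit of that complex whose promoter is printed above, read 4.91, 5.02, 5.11, 4.30 and 2.90 in native trachea. Drc1 in isografts was 2.67, 2.62, 2.70, 2.48 and 2.44 at day 4, 3.56, 5.07, 4.13, 4.60 and 5.67 at day 14 and 3.97, 4.84, 5.07, 5.49 and 3.48 at day 25. Drc1 in allografts was 2.6, 2.55, 2.57, 2.56 and 2.79 at day 4, 2.23, 2.47, 2.70, 2.67 and 2.40 at day 14 and 2.43, 2.47, 2.45, 2.32 and 2.45 at day 25. The pattern over the groups was that of Drc3, again with no overlap at days 14 and 25 and with the low values near background. Its differences were 0.03, -2.11 and -2.15 (SE 0.35), with adjusted p-values of 2.42e-05 and 1.8e-05 at days 14 and 25 in limma.

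Tektins are filaments inside the microtubule pairs. Tekt1 read 6.26, 6.47, 6.56, 6.16 and 4.97 in native trachea. Isografts had 4.07, 4.40, 4.25, 4.16 and 3.89 at day 4, 5.14, 5.84, 6.50, 6.78 and 6.52 at day 14 and 6.44, 5.83, 6.65, 6.68 and 4.20 at day 25. Allografts had 4.10, 3.89, 3.83, 4.17 and 4.00 at day 4, 4.05, 3.78, 3.86, 4.18 and 3.90 at day 14 and 4.03, 3.58, 4.13, 3.65 and 3.73 at day 25. Isograft replicate 5 of day 25 was the only one of the 10 later isografts under 5, yet it too was above every allograft of its day. Tekt1 differed by -0.16, -2.20 and -2.14 at the 3 days (SE 0.33), with limma adjusted p-values of 7.5e-06 and 1.09e-05 at days 14 and 25. Tekt2 ran from 2.04 to 2.62 over all arrays and could not be tested.

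Of 5 axonemal dynein genes, only Dnah8, a heavy chain of the outer arm best known from sperm, passed the filter, with 6 arrays at 5 or more, of which 3 were day 14 isografts, 2 day 25 isografts and 1 native. Dnah8 read 4.21, 4.11, 5.29, 4.37 and 4.46 in native trachea. Its isograft levels were 4.27, 4.52, 4.37, 4.30 and 4.33 at day 4, 4.51, 4.68, 5.34, 5.15 and 5.25 at day 14 and 4.75, 5.29, 5.01, 4.62 and 4.99 at day 25, and its allograft levels 3.54, 4.35, 4.38, 4.41 and 4.27, 4.32, 3.83, 3.87, 4.46 and 4.34 and 3.96, 3.81, 4.21, 4.33 and 4.36. The spread was narrow, but isografts and allografts did not overlap at days 14 and 25. The differences were -0.17, -0.82 and -0.80 (SE 0.20), with adjusted p-values of 0.0034 and 0.00517 at days 14 and 25 in limma. Dnah5, the outer arm heavy chain of airway cilia, reached 5 in 1 array and was not tested. It was singled out after its values were seen: it read 2.95, 3.21, 3.46, 4.17 and 5.27 in day 14 isografts and 2.68, 2.55, 2.73, 2.83 and 2.72 in day 14 allografts, which did not overlap. Dnal4, a dynein light chain, ran from 3.44 to 5.17, Dnah11 from 3.28 to 4.32 and Dnah1 from 1.74 to 2.04, and none was tested.

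All 5 tested Cfap genes, whose proteins are built into or serve cilia and flagella, were called lower in day 14 allografts, and 4 of 5 in day 25 allografts. Cfap36 read 8.30, 8.68, 8.79, 8.46 and 7.86 in native trachea, 8.10, 7.19, 7.72, 7.83 and 8.10 in day 4 isografts, 8.13, 7.91, 8.04, 8.61 and 8.63 in day 14 and 8.16, 8.60, 8.67, 8.63 and 8.73 in day 25 isografts. In allografts it read 7.67, 7.64, 7.64, 7.87 and 7.99, 6.76, 7.36, 7.38, 7.04 and 6.88 and 7.64, 7.16, 7.57, 7.59 and 7.33 at days 4, 14 and 25. Its levels stayed well above background in every array, and the groups of days 14 and 25 did not overlap. The Cfap36 difference was -0.03, -1.18 and -1.1 (SE 0.19), with limma adjusted p-values of 1.72e-05 and 4.79e-05 at the later days.

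Cfap20, a protein of the inner junction of the microtubule pair, read 7.22, 7.66, 7.39, 7.18 and 6.89 in native trachea. Isograft arrays read 6.97, 6.74, 6.90, 6.80 and 7.12 at day 4, 6.84, 7.57, 7.26, 7.58 and 7.91 at day 14 and 7.30, 7.90, 8.16, 8.05 and 7.64 at day 25. Allograft arrays read 6.54, 6.56, 6.61, 6.72 and 7.21, 6.48, 6.23, 6.89, 6.80 and 6.64 and 6.41, 6.20, 6.66, 6.83 and 6.80 at those days. At day 14 allograft replicate 3 was above isograft replicate 1, and at day 25 the groups were apart. Differences were -0.18, -0.82 and -1.23 (SE 0.19), with adjusted p-values of 0.00184 and 1e-05 at days 14 and 25 in limma. Cfap61, of the complex that anchors a spoke, was at 2.14 to 2.28 in allografts of days 14 and 25 and differed by -2.11 and -2.26 from isografts (SE 0.50). Those allograft values lie near background, so the sizes depend on the background model. The remaining tested genes, named with their values known, were Cfap298 at -1.52 and -2.05 (SE 0.25) and Cfap410 at -0.78 and -0.33 (SE 0.22), the last not called at day 25. A second tested Cfap298 probe set differed by -0.87 and -0.57 (SE 0.18), and was higher in day 14 isografts than in native trachea by 0.50, where the one representing the gene was at -0.04. A second Cfap410 probe set reached 5 in 4 arrays and was not tested. Its means were 4.42 and 4.82 in isografts of days 14 and 25, and 3.63 and 3.79 in allografts. Cfap157 and Cfap97 never reached 5.

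Of 12 IFT genes 11 were tested, of which 8 were called lower in allografts at day 14 and 6 at day 25, and none higher. Ift172, the largest subunit of the outbound IFT-B train, read 6.58, 7.43, 7.72, 6.79 and 6.01 in native trachea. Isografts stood at 5.11, 4.77, 4.89, 4.86 and 5.02 at day 4, 6.55, 7.43, 7.26, 8.98 and 8.68 at day 14 and 7.41, 7.94, 8.31, 8.21 and 6.51 at day 25. Allografts stood at 4.66, 5.47, 4.79, 4.88 and 6.20 at day 4, 5.41, 5.43, 5.31, 4.79 and 5.10 at day 14 and 5.92, 5.78, 4.84, 6.79 and 5.94 at day 25. The groups were apart at day 14 and overlapped at day 25, where allograft replicate 4 passed isograft replicate 5. Ift172 differed by 0.27, -2.57 and -1.82 at days 4, 14 and 25 (SE 0.40), with limma adjusted p-values of 1.09e-05 and 0.00107 at the later days.

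Ift74, which binds tubulin cargo together with Ift81, read 7.33, 7.81, 7.90, 7.48 and 6.79 in native trachea and 7.19, 6.69, 7.47, 7.07 and 7.24 in day 4 isografts. It read 8.12, 8.07, 7.72, 8.29 and 8.78 in day 14 and 8.31, 8.11, 8.0, 8.66 and 7.23 in day 25 isografts. In allografts Ift74 read 7.59, 7.06, 7.57, 7.24 and 7.74 at day 4, 6.29, 6.65, 6.95, 7.27 and 7.12 at day 14 and 7.29, 6.79, 7.72, 6.59 and 6.47 at day 25. The groups were apart at day 14 and overlapped at day 25, and no array was near background. Its difference was 0.31, -1.34 and -1.09 (SE 0.26), with adjusted p-values of 0.00023 and 0.0026 at days 14 and 25 in limma.

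Ift57, also of IFT-B, read 7.64, 7.93, 7.94, 6.98 and 7.08 in native trachea and 6.98, 6.83, 7.04, 6.86 and 6.84 in day 4 isografts. Later isografts read 7.69, 8.32, 7.94, 8.05 and 8.47 at day 14 and 8.99, 8.23, 8.01, 8.62 and 7.08 at day 25. Its allograft arrays read 7.17, 6.85, 7.14, 7.32 and 7.57 at day 4, 6.61, 6.66, 7.19, 7.13 and 6.86 at day 14 and 6.88, 6.65, 7.75, 6.86 and 6.84 at day 25. The day 14 groups did not overlap and the day 25 groups did. Differences were 0.30, -1.20 and -1.19 (SE 0.25), with limma adjusted p-values of 0.000666 and 0.000811 at the later days. The other IFT genes called at day 14, named with their values known, were Ift81, Ift140, Ift46, Ift80 and Ift88, at -0.70 to -2.18. Ift122 never reached 5.

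Ift27, a small GTPase of IFT-B that helps the BBSome leave the cilium, read 6.36, 7.24, 7.33, 6.71 and 6.80 in native trachea and 6.47, 6.61, 6.66, 6.41 and 6.65 in day 4 isografts. Isografts held 7.29, 7.46, 7.12, 7.73 and 7.71 at day 14 and 7.23, 7.70, 7.33, 7.82 and 6.92 at day 25. Allografts held 6.94, 6.81, 7.07, 6.34 and 7.63 at day 4, 7.29, 7.16, 8.04, 8.06 and 7.82 at day 14 and 7.89, 7.62, 7.40, 8.43 and 7.99 at day 25. Isografts and allografts overlapped at every day. The difference was 0.40, 0.21 and 0.46 (SE 0.23), not called at any day. The Ift27 probe set read here is of a kind that can pick up similar transcripts. Ift20 at -0.04 and 0.22 (SE 0.30) and Ift22 at -0.20 and -0.38 (SE 0.25) were the other tested IFT genes not called at day 14 or day 25. Drc1 and Tekt1, whose promoters are printed above beside that of Ift27, were called lower at both days.

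The BBSome ferries membrane proteins in cilia of both kinds. Bbs2 read 5.80, 6.06, 6.53, 5.07 and 4.99 in native trachea. In isografts Bbs2 was 3.53, 3.61, 3.81, 3.58 and 3.60 at day 4, 5.23, 3.76, 4.60, 5.31 and 5.41 at day 14 and 5.42, 4.77, 5.51, 5.90 and 3.63 at day 25. In allografts Bbs2 was 3.67, 3.39, 3.46, 3.77 and 3.51, 3.17, 3.67, 3.73, 3.58 and 3.72 and 3.77, 3.92, 3.73, 3.74 and 3.49 at the 3 days. Day 14 isografts were all above the allografts, while at day 25 isograft replicate 5 lay among them. Differences were -0.06, -1.29 and -1.32 (SE 0.31), with adjusted p-values of 0.00285 and 0.00251 at days 14 and 25 in limma. The allograft values of Bbs2 lie near background, so these sizes depend on the background model.

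Bbs9, which helps hold the BBSome together, read 4.69, 5.38, 5.37, 5.13 and 3.70 in native trachea and 4.57, 4.49, 4.57, 4.41 and 4.62 in day 4 isografts. It read 4.97, 4.42, 4.59, 5.37 and 4.85 in day 14 and 5.36, 4.57, 5.54, 5.16 and 4.57 in day 25 isografts. Allografts had 4.14, 4.28, 4.31, 4.43 and 4.27, 4.41, 4.17, 4.74, 3.79 and 3.90 and 3.95, 4.29, 4.18, 3.66 and 4.14 for Bbs9 at days 4, 14 and 25. The groups overlapped at day 14 and not at day 25. Its difference was -0.64 at day 14, not called (limma adjusted p = 0.0651), and -0.99 at day 25 (SE 0.24, adjusted p = 0.00342 in limma). At day 14 Bbs9 was called when isograft replicate 2 or allograft replicate 3 was left out, with differences of -0.51 to -0.77 over the 10 arrays left out in turn.

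Genes of other epithelial cells, muscle and cartilage were also lower. In allografts against isografts, 9 of 9 tested secretory cell genes were lower at both later days, with medians over the 10 on the array of -6.04 at day 14 and -9.12 at day 25. Of 17 tested genes of general epithelium, 14 were lower at day 14 and 16 at day 25. Of 6 tested basal cell genes, 3 were lower and 1 higher at day 14, and 5 were lower at day 25. The mean level of the secretory list ran from 11.48 to 11.92 in day 14 isografts and from 4.47 to 7.19 in day 14 allografts, and at day 25 from 10.59 to 12.18 and from 3.85 to 4.28. Basal genes ran from 6.63 to 7.54 against 5.09 to 7.0 at day 14, and from 5.77 to 8.44 against 3.76 to 4.12 at day 25. The general epithelial list ran from 7.26 to 8.31 against 4.45 to 6.17 at day 14, and from 7.30 to 7.98 against 3.45 to 3.80 at day 25. Skeletal muscle genes were lower for 6 of 9 at day 14 (median -4.53) and 0 of 9 at day 25 (median -1.48). Cartilage genes were lower for 7 of 9 at day 14 (median -2.45), and at day 25 for 0 of 9, with 1 higher. Muscle list means ran from 4.93 to 8.97 in day 14 isografts and 3.35 to 5.0 in day 14 allografts, and cartilage list means from 8.93 to 10.47 and 5.89 to 8.75. Of 6 fibroblast genes 1 was higher at day 14, and 1 higher and 1 lower at day 25. Macrophage genes were higher, 7 of 10 at day 14 and 6 of 10 at day 25 with 1 lower, and T cell genes were higher for 5 of 6 at both days. Macrophage list means ran from 8.40 to 8.72 in day 14 isografts and 9.40 to 10.03 in day 14 allografts, and T cell list means from 3.82 to 4.17 and 4.92 to 6.15. Of the markers in these lists only Dsc3, a basal gene, never reached 5 in any array. Their part in the cilium gene result was not tested.

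**Figure D3:**
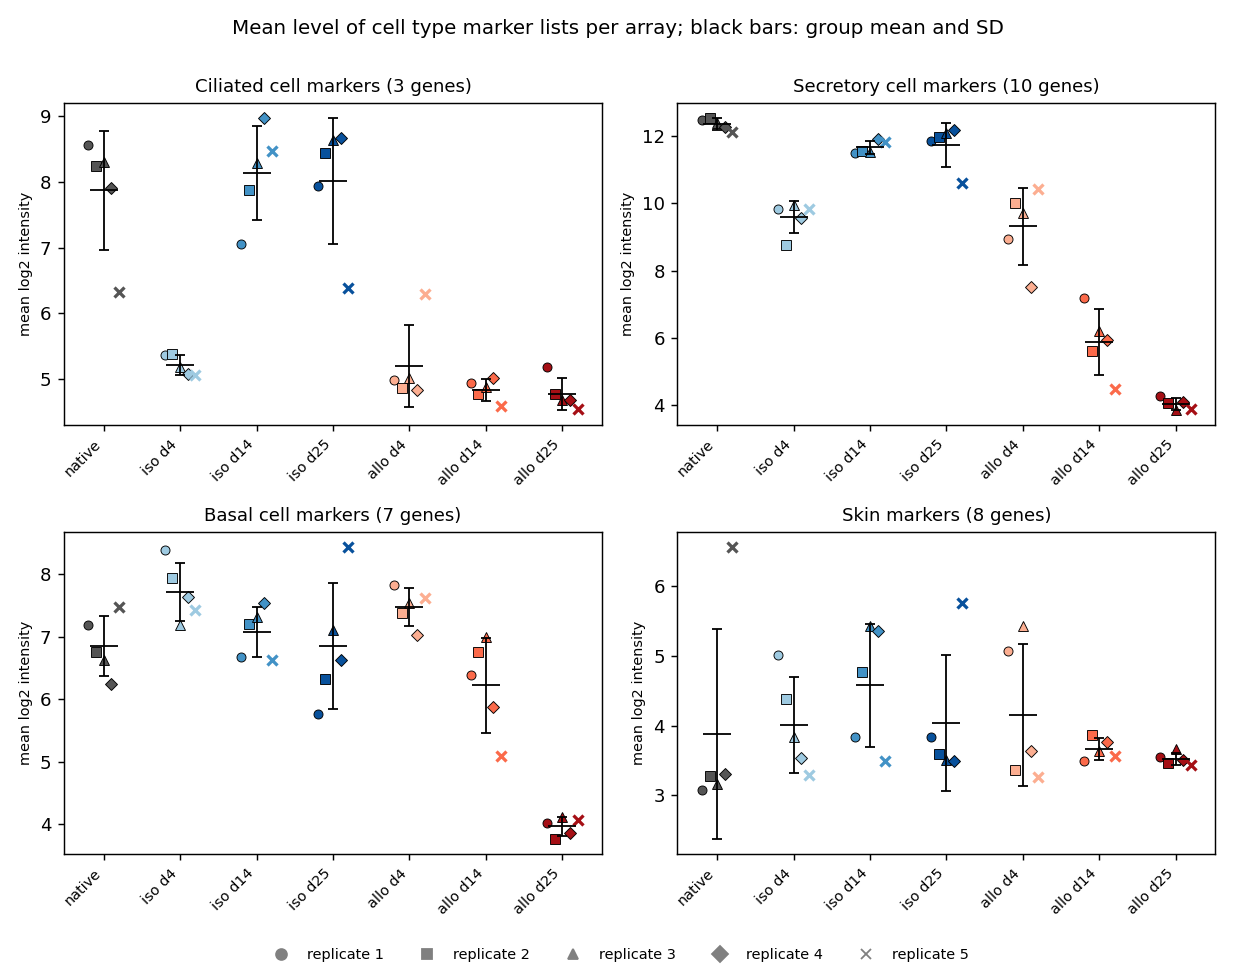
Mean log2 intensity (vertical axis) of 4 marker lists in every array of the 7 groups, with a marker shape for each replicate number and black bars for the group mean and SD (n = 5). The ciliated cell markers are the members Foxj1, Rsph1 and Tppp3, so they repeat values given above. They are low in day 4 isografts and all allografts. Secretory markers are lowest in day 25 allografts (3.85 to 4.28), and skin markers are highest in native replicate 5 (6.56).

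On the arrays' own control probe sets for RNA quality the ranges of these groups overlapped. The log2 difference between the 3′ and 5′ probe sets of Gapdh ran from 0.57 to 2.58 in day 14 isografts and from 0.69 to 3.02 in day 14 allografts. At day 25 it ran from 1.1 to 3.41 and from 0.78 to 1.99.

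Isografts were compared with native trachea, a comparison of compatible grafts with tissue that was not transplanted. At day 4, 17 of 26 tested cilium genes were lower in the grafts. Drc3 was 12.5-fold lower than in native trachea, Tppp3 12.1-fold, Foxj1 5.52-fold, Rsph9 5.34-fold and Bbs2 4.18-fold (n = 5). The day 4 values of Drc3 and Bbs2 lie near background, so their folds depend on the background model and are neither exact nor bounds. Dnah8, the only tested axonemal dynein, was not called (-0.13). At day 14, 0 of the 35 members were apart from the native arrays, where 5.91% of all 12393 genes were below all of them and 5.33% above. At day 25 again 0 members were apart, against 4.16% and 4.19% of all genes. These counts include native and day 25 isograft replicates 5, which stood away from their groups. With both left out, Rsph1, Ift46, Ift57 and Ift74 lay above all other native arrays in the other day 25 isografts. Ift88 lay below those native arrays, at day 14 as well as at day 25. The shares of all genes were not recomputed without the 2 arrays. Rsph1 was 2.63-fold higher than native at day 14. The 5 native arrays serve every comparison with native tissue.

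**Figure D4:**
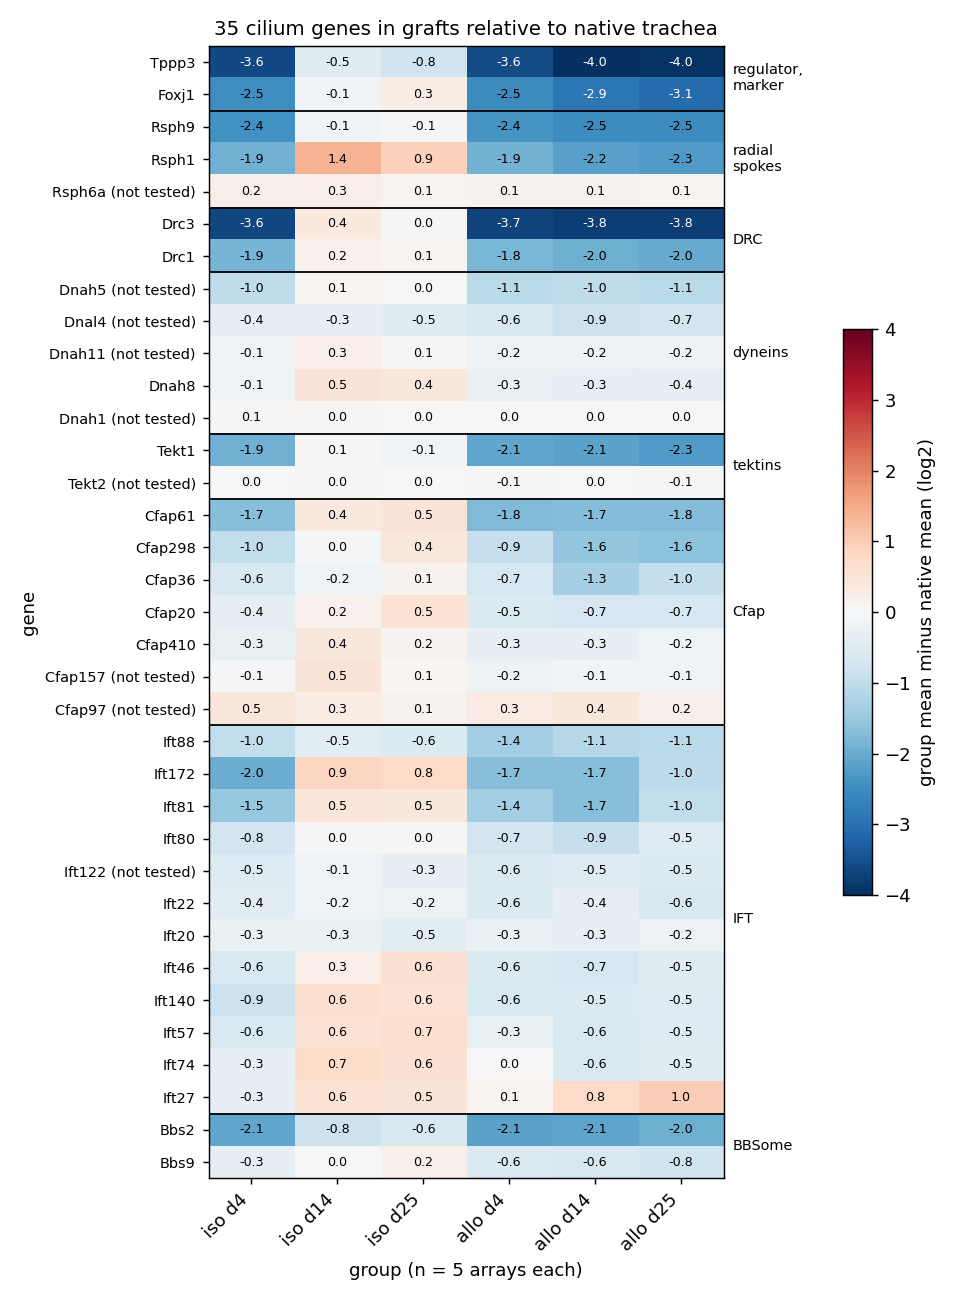
Group mean minus native mean (log2, colour scale from -4 to 4) of the 35 cilium genes in the 6 graft groups (n = 5 arrays each), ordered by role, with genes that were not tested marked. Most axoneme genes are negative in day 4 isografts and in allografts of every day and near 0 in day 14 and day 25 isografts.

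In day 4 isografts, 17 of 26 members were called lower than in native trachea and 0 higher, where 26.1% of all tested genes were lower and 20.2% higher. The median over all 35 members was -0.60, against -0.08 over all tested genes, and 12 of the 35 were below all native arrays, as were 12.6% of all 12393 genes. By role these were Foxj1 and Tppp3, both tested spoke genes, both genes of the regulatory complex, Tekt1, 3 of 5 Cfap genes, 6 of 11 IFT genes and 1 of 2 BBSome genes. The sizes were -2.46 for Foxj1 (SE 0.45; -3.05 without native replicate 5), -3.60 for Tppp3 (SE 0.46), -1.92 for Rsph1 (SE 0.41) and -2.42 for Rsph9 (SE 0.30). Drc3 differed by -3.64 (SE 0.45), Drc1 by -1.87 (SE 0.35), Tekt1 by -1.93 (SE 0.33) and Ift172 by -1.98 (SE 0.40). Bbs2 differed by -2.06 (SE 0.31). The limma adjusted p-values of these 9 genes ran from 1.22e-07 for Rsph9 to 0.000372 for Rsph1. Ift57 at -0.60 (adjusted p = 0.052 in limma) was called without native replicate 4 or 5, and Bbs9 at -0.32 without native replicate 5. A second Cfap20 probe set was called lower (-0.89, SE 0.22) where the one representing the gene, at -0.36, was not. Bbs2, Bbs9, Cfap410, Cfap61, Dnah8, Drc1, Drc3, Rsph1, Rsph9 and Tekt1 reached 5 in no day 4 isograft. They passed the filter through other groups alone.

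Secretory genes were lower in the same grafts, 9 of 9 tested, with list means of 8.76 to 9.96 against 12.11 to 12.54 in native trachea. General epithelial genes were lower for 11 of 17 and higher for 1, with list means of 6.99 to 7.63 against 7.80 to 8.68. Basal genes were lower for 1 of 6 and higher for 3, with list means of 7.18 to 8.39 against 6.25 to 7.47. Skeletal muscle and cartilage genes were lower for 5 of 9 each, with medians of -2.96 and -1.21. Muscle list means were 4.02 to 7.74 against 7.62 to 12.17, and cartilage list means 7.42 to 9.81 against 8.40 to 10.24. Fibroblast genes were higher for 4 of 6 (median 1.14), with list means of 11.99 to 12.45 against 10.93 to 11.74. Macrophage genes were higher for 9 of 10, with list means of 9.16 to 9.46 against 6.27 to 6.92. Their part in the cilium gene values was not tested.

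At day 14, 1 of 26 members was lower in isografts than in native trachea and 2 were higher, against 16.3% and 12.2% of all tested genes, and at day 25 again 1 and 2, against 7.34% and 9.90%. Medians over the 35 members were 0.16 and 0.12, against -0.09 and 0.01 over all tested genes. Foxj1 differed by -0.12 and 0.31 (SE 0.45), Tppp3 by -0.49 and -0.79 (SE 0.46), Drc3 by 0.40 and -0.05 (SE 0.45) and Tekt1 by 0.07 and -0.13 (SE 0.33), none of them called. Rsph1 was higher at day 14 by 1.40 (SE 0.41, limma adjusted p = 0.0123), a call lost when only the compared arrays were fitted, and its value of 0.91 at day 25 was called only without isograft replicate 5. Ift74 was higher at day 14 by 0.74 (SE 0.26), a call lost without native replicate 1, 4 or 5 or isograft replicate 5. Bbs2 differed at day 14 by -0.82 (SE 0.31), a call lost without native replicate 1, 2 or 3 or isograft replicate 2 or 3. The day 25 calls were Cfap20 at 0.55 (SE 0.19), Ift46 at 0.61 (SE 0.20) and Ift88 at -0.56 (SE 0.18). Cfap20 was lost without native replicate 1, 3, 4 or 5 or isograft replicate 2, 3 or 4. Ift46 was lost without native replicate 1, 4 or 5 or isograft replicate 3 or 4, and Ift88 without native replicate 1, 2, 3 or 4 or isograft replicate 1 or 5. Gained calls were those of Dnah8, without native replicate 3 at both days and without isograft replicate 1 at day 14, of Ift74 at day 25 without isograft replicate 5, and of Ift57 at day 25 without native replicate 3 or isograft replicate 5. The counts moved with the scaling. They became 1 lower and 6 higher at day 14 after a repeated quantile normalization and 0 and 8 under both re-centrings tried, and 0 lower and 3 higher at day 25 under all 3. The day 14 count was 1 without native replicate 1 and 6 without isograft replicate 1; the day 25 count was 0 without native replicate 1 or 4, 1 without native replicate 5 or isograft replicate 3 or 4, and 5 without isograft replicate 5.

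Isografts of successive days were compared with one another. From day 4 to day 14, 22 of 26 members were called higher and 0 lower, where 11.4% of all tested genes were higher and 12.6% lower. The members named above that reached 5 in no day 4 isograft passed the filter through other groups here too. The median was 0.86 over the 35 members and 0.01 over all tested genes. Of the 35, 16 were higher in every day 14 array, as were 5.57% of all 12393 genes. Drc3 rose by 4.04 (SE 0.45), Rsph1 by 3.31 (SE 0.41), Tppp3 by 3.11 (SE 0.46), Ift172 by 2.85 (SE 0.40), Foxj1 by 2.35 (SE 0.45) and Rsph9 by 2.30 (SE 0.30). Their limma adjusted p-values ran from 1.04e-07 for Drc3 to 0.000285 for Foxj1. Of the IFT genes 9 of 11 rose, Ift27 among them by 0.90 (SE 0.23). Not called were Ift20, Ift22, Cfap36 and Bbs9, of which Cfap36, at 0.48, was called without day 4 isograft replicate 5 or day 14 isograft replicate 2. The call of Dnah8 (0.63, SE 0.20) was lost without day 4 isograft replicate 1 or day 14 isograft replicate 3, 4 or 5. That of Cfap20 (0.52, SE 0.19) was lost without day 4 isograft replicate 1, 2, 3 or 4 or day 14 isograft replicate 2, 4 or 5. Between day 14 and day 25 limma called 0 members and 0 of all tested genes, with 0 members at an unadjusted p under 0.05. The secretory genes rose in the same interval from day 4 to day 14, 9 of 9 tested.

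Allografts were compared with native trachea in the same way. At day 4, 17 of 26 were called lower and 0 higher, against 25.1% and 22.0% of all tested genes. At day 14, 19 were lower and 1 higher, against 26.5% and 21.5%, and at day 25, 16 were lower and 1 higher, against 19.7% and 18.4%. The 9 members named earlier that reached 5 in no allograft passed the filter through other groups here as well. Rsph1 and Cfap298 were under 5 in all allografts of days 14 and 25, and Foxj1 in all of day 25. Medians over the 35 members were -0.61, -0.70 and -0.69, where all tested genes had -0.04, -0.10 and -0.06. Tppp3 differed by -3.58, -4.03 and -3.94 at days 4, 14 and 25 (SE 0.46), Foxj1 by -2.54, -2.88 and -3.09 (SE 0.45; -3.13, -3.47 and -3.68 without native replicate 5), Rsph1 by -1.90, -2.19 and -2.27 (SE 0.41) and Drc3 by -3.71, -3.77 and -3.77 (SE 0.45). Ift172 differed by -1.70, -1.70 and -1.05 (SE 0.40). The single gene called higher was Ift27, at 0.79 at day 14 (SE 0.23, limma adjusted p = 0.00565) and 0.98 at day 25 (adjusted p = 0.00103 in limma). The probe set that represents Ift27 is of a kind that can pick up similar transcripts. A second Ift27 probe set of the same kind was called higher at all 3 days, by 0.67, 1.07 and 0.91 (SE 0.27). That second set was also called higher in isografts at days 14 and 25, by 0.91 and 0.84. The remaining Ift27 probe set never reached 5. At day 4 the call of Cfap20 (-0.54) was lost without native replicate 2 or allograft replicate 1, and Bbs9 (-0.57) gained one without native replicate 5. At day 14 that of Ift57 (-0.62) was lost without native replicate 1, 2 or 3 or allograft replicate 1, 2 or 5, and that of Bbs9 (-0.65) without native replicate 2, 3 or 4 or allograft replicate 4 or 5. Ift74, at -0.61 at day 14 and -0.49 at day 25, was called without native replicate 5, without allograft replicate 4 or 5 at day 14, and without allograft replicate 3 at day 25; Ift57, at -0.52 at day 25, was called without allograft replicate 3.

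Beside these values, secretory genes were lower than in native trachea for 9 of 9 at each day, and general epithelial genes for 12, 16 and 16 of 17 with 1 higher at each. Skeletal muscle genes were lower for 6, 8 and 4 of 9. Cartilage genes were lower for 3, 7 and 0 of 9, with 2 higher at day 25. Macrophage genes were higher for 9 of 10 at each day, T cell genes for 0, 4 and 5 of 6 and fibroblast genes for 4, 5 and 4 of 6. Secretory list means were 7.52 to 10.43 at day 4, against 12.11 to 12.54 in native trachea. Muscle list means were 3.59 to 7.58, 3.35 to 5.0 and 3.61 to 12.62 at days 4, 14 and 25, against 7.62 to 12.17. The part of these cells in the cilium gene values was not tested.

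Within allografts few cilium genes were called after day 4. From day 4 to day 14, 1 of 26 was called lower, Cfap36 at -0.68 (SE 0.19), and 1 higher, Ift27 at 0.72 (SE 0.23), where 5.27% of all tested genes were lower and 3.65% higher. The Cfap36 call was lost without day 4 allograft replicate 4 or 5 or day 14 allograft replicate 1 or 5. That of Ift27 was lost without day 4 allograft replicate 1, 2, 3 or 4 or day 14 allograft replicate 3, 4 or 5. The count of 2 became 0 without day 4 allograft replicate 4 or day 14 allograft replicate 5, and 1 without day 4 allograft replicate 1, 2 or 5 or day 14 allograft replicate 1, 3 or 4. Between day 14 and day 25 limma called 0 of 26, with 0 lower and 1 higher at an unadjusted p under 0.05, where 1.89% and 1.60% of all tested genes were called. Foxj1 differed by -0.34 and then -0.21, neither called.

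The change of the allograft-isograft difference between days was tested as an interaction. From day 4 to day 14 it was called for 15 of 26 members. In all of them allografts became lower relative to isografts. Of all tested genes 4.96% were called in that direction and 2.67% in the other. For day 25 against day 4 the interaction was called for 16, against 4.98% and 1.20%. Medians over the 35 members were -1.0 and -1.05, against 0.01 and -0.04 over all tested genes. Drc3 changed by -4.10 and -3.66 (SE 0.64; the second -4.28 without day 25 isograft replicate 5), Rsph1 by -3.60 and -3.20 (SE 0.58), Tppp3 by -3.56 and -3.17 (SE 0.64) and Foxj1 by -2.69 and -3.33 (SE 0.64). Ift172 changed by -2.84 and -2.09 (SE 0.56) and Rsph9 by -2.44 and -2.50 (SE 0.42). The limma adjusted p-values of these 6 genes ran from 6.58e-05 for Drc3 at day 14 to 0.0195 for Ift172 at day 25. The interaction of Bbs2 was -1.22 and -1.25, not called, and was called without day 14 isograft replicate 2 or day 25 isograft replicate 5. Between day 14 and day 25 limma called 0 of 26 members, 0 also at an unadjusted p under 0.05, where 0.771% of all tested genes were called lower and 0.470% higher.

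Genes of the motile cilium outside the naming rule were read beside the members. Of 40 listed, 13 were on the array and 10 tested: Dnaaf1, Dnaaf5, Lrrc6 and Zmynd10, which assemble dynein arms before they enter the cilium, Mns1, Spa17, Nme5, Mlf1, and the tubulins Tubb4b and Tuba1a. All 10 were lower in day 14 allografts than in isografts, with a median over the 13 of -1.90, and 9 at day 25, Tuba1a excepted. Mlf1 differed by -3.47 (SE 0.55), Nme5 by -2.94 (SE 0.35), Spa17 by -2.71 (SE 0.42) and Zmynd10 by -2.50 (SE 0.49) at day 14. Nme5 had a mean of 6.98 ± 0.74 (SD, n = 5) in native trachea, 4.74 ± 0.20 in day 4 isografts, 7.47 ± 0.42 in day 14 isografts and 4.54 ± 0.40 in day 14 allografts. In day 4 isografts against native trachea 8 of the 10 were lower and Tuba1a, a tubulin of many cell types, was higher by 0.45 (SE 0.17). In isografts 9 of the 10 rose from day 4 to day 14. Against native trachea 3 of the 10 were higher in day 14 isografts and 1 in day 25 isografts, with 0 lower at either day. Of all tested genes 12.2% and 9.90% were higher at those days. Medians over the 13 were 0.50 and 0.39.

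Transport genes that primary cilia share had 11 of 22 on the array and 10 tested. At day 14, 4 were lower in allografts and 1 higher, and at day 25, 1 was lower, with medians over the 11 of -0.52 and -0.28. Ttc8, a BBSome subunit, was lower at both days, with differences of -1.32 and -0.73 (SE 0.18). The kinesin subunits Kif3a and Kifap3 differed at day 14 by -0.52 (SE 0.15) and -0.55 (SE 0.17), and Mkks, a chaperone of BBSome assembly, was higher by 0.66 (SE 0.19). Of genes that control the making of cilia, 8 of 14 were on the array and 3 tested. Myb, which acts early in multiciliated cells, differed in allografts by -2.71 at day 14 and -3.56 at day 25 (SE 0.53). E2f5 differed at day 25 by -0.65 (SE 0.17), and Plk4, a kinase of centriole duplication that dividing cells also use, was higher at day 14 by 1.20 (SE 0.29). Rfx2, Rfx3, Trp73 and Cep164 never reached 5. Of 6 sperm genes 1 was tested, and list means lay between 3.29 and 4.42 in all arrays.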

How the data were processed

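The deposited values are log2 intensities that the authors made with GCRMA, per the submitters' processing notes (version 1.1.3), from biotin-labelled cRNA. GCRMA models and removes background before it scales arrays and combines probes, so values near background and folds against them depend on its model. No further logarithm was taken. Of 22690 probe sets, 64 controls were left out, 691 named several genes and 1555 none in the annotation used. Updating symbols by gene identifier changed 0 of 20351. The 30 member probe sets that reached log2 5 in at least 5 arrays cover 26 genes. A model with 1 mean per group took in the 35 arrays and 13678 probe sets (limma 3.58.1, R 4.3.3, lmFit and eBayes, 28 residual degrees of freedom, 31.97 in all), with Benjamini-Hochberg adjustment within each comparison, and checked on simulated data. "Lower" and "higher" refer to the first group named. A gene was represented by its single-gene probe set with the highest mean. Named were Foxj1, Rsph1 and Tppp3, the 2 tested genes of highest mean in each role, the 6 called genes of largest difference in each comparison, called genes of opposite direction, and genes whose probe sets differ in calls. The members and lists were chosen with earlier results of these data known. Alternatives were other filters, normalizations, thresholds, variance models, array weights, a replicate block, fits of only the compared arrays, averaged probe sets and leaving out each array. Promoters came from RefSeq (GRCm38.p6). The number of arrays limits the precision.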

Additional observations from a re-analysis of the deposited data

Results flagged for a closer look

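For 19 named genes, 133 groups of 5 arrays were tested, and in these 16 arrays' values stood away from the rest of their group by Dixon's criterion, which chance meets in about 5% of groups. Bbs2 read 3.17 in day 14 allograft replicate 1. Cfap20 read 7.21 in day 4 allograft replicate 5. Cfap36 read 8.16 in day 25 isograft replicate 1. Dnah8 read 3.54 in day 4 allograft replicate 1. Drc1 read 2.79 in day 4 allograft replicate 5 and 2.32 in day 25 allograft replicate 4. Drc3 read 4.25 in native replicate 5, 3.75 in day 25 isograft replicate 5 and 2.90 in day 4 allograft replicate 5. Foxj1 read 6.53 in day 4 allograft replicate 5. Ift46 read 6.94 in day 14 allograft replicate 3. Ift57 read 7.75 in day 25 allograft replicate 3. Rsph1 read 4.62 in native replicate 5 and 5.28 in day 4 allograft replicate 5. Tekt1 read 4.97 in native replicate 5. Tppp3 read 9.27 in native replicate 5.

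The difference between allografts and isografts itself differed between days, by limma's interaction test, for 15 tested members at day 14 and 16 at day 25, each against day 4; the 22 of these differences that fall under the rule for named genes in that comparison are given. From day 4 to day 14 (log2) it changed by -2.69 for Foxj1, -3.60 for Rsph1, -3.56 for Tppp3, -1.65 for Ift74, -1.50 for Ift57, -2.44 for Rsph9, -2.04 for Tekt1, -1.15 for Cfap36, -4.10 for Drc3, -2.14 for Drc1 and -2.84 for Ift172. From day 4 to day 25 (log2) it changed by -3.33 for Foxj1, -3.20 for Rsph1, -3.17 for Tppp3, -1.40 for Ift74, -1.49 for Ift57, -2.50 for Rsph9, -1.98 for Tekt1, -1.07 for Cfap36, -1.05 for Cfap20, -3.66 for Drc3 and -2.18 for Drc1.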

How the results depend on the processing

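Of 5747 recomputed values of named genes, 5547 kept direction and side of the threshold, 133 lost a call, 67 gained one and 0 reversed. Requiring log2 7 in 5 arrays left 13 members tested, of which were called 12 at day 14 and 12 at day 25 for allografts against isografts, 10 for day 4 isografts against native, 9, 11 and 10 for allografts against native at days 4, 14 and 25, and 12 for isografts from day 4 to 14. Requiring a mean of 5 left 18 tested, with 13 for allografts against isografts and 11 for allografts against native at day 25. For isografts against native the 3 calls at day 14 became 7 after quantile normalization, 8 under either re-centring, 1 with a 2-fold minimum and 0 at an adjusted p of 0.01 or with only the compared arrays. The 3 at day 25 became 6 with array weights and 0 with a 2-fold minimum, at 0.01 or with only the compared arrays. The 2-fold minimum gave 11 for day 4 isografts against native, 14 for isografts from day 4 to 14 and 0 for allografts from day 4 to 14. This last count was 0 at 0.01 and 1 without a filter, after centring on reference genes, with only the compared arrays or with averaged probe sets. The interaction of day 25 with day 4 had 10 calls at 0.01. Leaving out each array in turn gave, for allografts against isografts, 0 to 0, 21 to 23 and 20 to 22 calls at days 4, 14 and 25. It gave 17 to 20, 1 to 6 and 0 to 5 for isografts and 15 to 20, 18 to 22 and 16 to 20 for allografts against native. Isografts had 19 to 22 and then 0 to 0 calls between successive days, allografts 0 to 2 and then 0 to 0, and the interactions 14 to 17, 13 to 18 and 0 to 0. Centring on reference genes moved the median of all probe sets from 0.05 to -0.12 for day 14 allografts against isografts, from -0.02 to -0.12 and from 0 to 0.13 for isografts against native at days 4 and 25, from -0.03 to 0.24 for isografts from day 4 to 14, and from 0.04 to -0.12 for the interaction of day 14 with day 4. Same-number correlations between groups ran from -0.42 to 0.47 (median 0.03), and in 0 of 21 pairs of groups were all above 0.1. In some pairs their median stood above that of other numbers. It was 0.3 against -0.03 for day 4 isografts with day 4 allografts, and 0.24 against -0.13 with day 14 allografts. In others it did not, as for isografts of days 4 and 14, at -0.17 against 0.03. Whether replicate numbers pair some groups is therefore not settled. With the replicate block, day 14 isografts against native had 5 calls and allografts from day 4 to 14 had 1; other counts stayed within 1.5 times. Except for the settings that test fewer genes or fit fewer arrays, the cause was not tested. Low signal over background limits 9 members, which were not tested.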
